A study of Mus musculus with 14 samples.

Results

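Lysine acetyltransferases other than Tip60 were followed in mouse embryonic fibroblasts (MEFs) in which the Tip60 gene, Kat5, had been deleted. The members are 10 genes taken from a list by name, Kat2a, Kat2b, Kat6a, Kat6b, Kat7, Kat8, Kat14, Ep300, Crebbp and Hat1, and all 10 were found by gene identifier among the 26270 genes of the count files. All 10 passed the filter on low counts, with 14327 genes tested in all. The groups were Tip60-/- cells (KO) at day 3 (n = 3) and day 5 (n = 4), and Tip60+/+ cells (control) at day 3 (n = 3) and day 5 (n = 4). The fibroblasts came from E13.5 embryos and were grown at 3% O2, and deletion was induced with 250 nM 4-hydroxytamoxifen (4-OHT), a ligand used to switch on a tamoxifen-dependent recombinase. All 14 libraries carry one treatment text, so whether control cells were exposed to the drug is not stated, and neither are the recombinase or the exons it removes. Replicates 1 and 2 of the day 3 controls carry the same embryo identifier, and most embryos were sampled at both days. The labels number the litters 1 to 3, with numbers 1 and 2 in both genotypes, while no embryo identifier of a KO library begins like one of a control library. At day 3 the control libraries all carry litter number 1, and the KO libraries carry numbers 2, 3 and 3. The effects of KO and of litter thus cannot be told apart at day 3. Whether a numbered litter is the same in both genotypes is not stated, and if it is not, they cannot be told apart at day 5 either. Replicate spread is thus partly that of cultures of one embryo.

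Lysine acetyltransferases transfer the acetyl group of acetyl-CoA to lysines of histones and other proteins. Tip60 belongs to the MYST family, together with Kat6a, Kat6b, Kat7 and Kat8, and acts on histone H4 and H2A, while the GCN5 family (Kat2a and Kat2b) acts mainly on histone H3 and the paralogues p300 and CBP (Ep300 and Crebbp) on both tails and on many transcription factors. Most of these enzymes work inside multi-subunit complexes whose scaffold and reader proteins set their substrate, and related enzymes can share substrates, which makes their levels after loss of one enzyme a question of compensation.

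Of the 10 members, 9 had an entry in the RefSeq promoter table (GRCm38.p6). The 250 bases upstream of the start in the promoter entry are printed here 5′ to 3′ for 4 genes, Kat2a, Kat7, Kat14 and Ep300. They were chosen because each was called lower in KO at both days (values below). For Kat2a and Ep300 the start of the entry lies inside the gene position given below, so the end of the printed stretch falls within the gene. Capitals mark matches, on either strand, to the CCAAT box, the GC box (GGGCGG), the E-box (CACGTG), the cAMP response element (TGACGTCA) or the ETS motif (CCGGAAGT).
Kat2a (chr11:100712468-100712717, minus strand): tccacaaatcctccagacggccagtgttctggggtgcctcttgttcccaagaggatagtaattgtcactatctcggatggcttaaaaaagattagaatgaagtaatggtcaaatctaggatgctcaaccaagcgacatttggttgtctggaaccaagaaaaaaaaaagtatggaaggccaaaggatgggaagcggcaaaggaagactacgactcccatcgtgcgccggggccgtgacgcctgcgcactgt
Kat7 (chr11:95310247-95310496, minus strand): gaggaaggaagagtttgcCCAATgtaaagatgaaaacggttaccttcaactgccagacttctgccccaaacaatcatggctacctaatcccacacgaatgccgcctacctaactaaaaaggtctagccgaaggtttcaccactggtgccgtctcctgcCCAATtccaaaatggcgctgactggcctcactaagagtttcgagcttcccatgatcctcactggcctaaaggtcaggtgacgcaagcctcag
Kat14 (chr2:144368782-144369031, plus strand): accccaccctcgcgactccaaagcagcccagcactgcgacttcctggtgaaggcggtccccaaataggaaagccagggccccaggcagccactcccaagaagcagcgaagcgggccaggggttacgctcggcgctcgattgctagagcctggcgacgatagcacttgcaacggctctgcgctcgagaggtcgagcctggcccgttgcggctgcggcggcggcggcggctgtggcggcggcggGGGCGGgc
Ep300 (chr15:81585964-81586213, plus strand): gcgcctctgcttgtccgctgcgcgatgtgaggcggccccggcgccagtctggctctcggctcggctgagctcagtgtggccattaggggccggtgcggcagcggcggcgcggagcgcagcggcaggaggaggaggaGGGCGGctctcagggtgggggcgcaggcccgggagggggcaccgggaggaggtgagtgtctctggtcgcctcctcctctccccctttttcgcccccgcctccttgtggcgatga
The printed Kat7 stretch holds CCAAT, the Kat14 and Ep300 stretches hold GGGCGG, and the Kat2a stretch holds none of these letters. Over the 9 genes of the family with an entry, of which Kat2b, Kat6b and Kat8 have 2 each, GGGCGG was found in at least 1 entry of 6 genes, CCAAT of 4, CACGTG of 1, CCGGAAGT of 1 and TGACGTCA of 0. The shares among all 32851 promoter entries of the same length were 32.7%, 33.8%, 6.02%, 2.88% and 1.55% in that order. These shares are per entry while the counts are per gene, so they are not on one scale. CACGTG and CCGGAAGT were both found upstream of Hat1. A match describes letters in this window and is no evidence of a bound factor.

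Library totals ran from 2187168 counts (KO day 3 replicate 3) to 39203154 counts (KO day 3 replicate 2), with a median of 13985200.5. Levels are given as CPM (counts relative to the library total, with TMM scaling of the totals) or, for comparing genes, as RPKM, which also divides by the gene length in the files. Kat5 had 21.1, 20.2 and 18.3 CPM in day 3 KO libraries, against 31.5, 32.3 and 32.0 CPM in day 3 control libraries. At day 5 Kat5 had 17.3, 17.8, 19.9 and 18.7 CPM in KO libraries, against 30.9, 29.8, 32.1 and 30.9 CPM in control libraries. It was lower in every KO library, at 62.2% of control at day 3 and 59.5% at day 5, and a transcript lacking the deleted exons would still be counted. Kat5 exons also overlap those of Rnaseh2c on the opposite strand (mean 14.8 CPM), and with the strand setting of the counting not known here, reads of these genes may not be told apart. All 10 fibroblast markers reached 1 CPM in every group. The summed cartilage and bone markers were 2336 to 2731 CPM in day 3 KO libraries, against 113 to 206 CPM in day 3 control libraries, and 1883 to 3836 CPM in day 5 KO libraries, against 226 to 2630 CPM in day 5 control libraries. Of these 9 cartilage and bone markers, 7 reached 1 CPM in each KO group and 5 in each control group, and Matn1 and Ibsp were at 0 in day 3 controls. The summed fibroblast markers were 45640 to 56050 CPM in day 3 KO libraries, against 31110 to 36250 CPM in day 3 control libraries, and overlapped at day 5. By gene at day 3, Col1a1, Col1a2, Col3a1, Pdgfra, Pdgfrb, Fn1 and Lum were higher in every KO library than in any control library. Thy1 was lower, at 274.5 to 308.6 CPM in KO, against 336.2 to 416.7 CPM in control. S100a4 was lower too, at 144 to 209.1 CPM in KO, against 222.1 to 254.6 CPM in control, and Vim overlapped. Summed neural markers were 315 to 425 CPM in day 3 KO libraries, against 160 to 254 CPM in day 3 control libraries, and they too overlapped at day 5. Summed endothelial markers did not overlap at either day, at 16 to 17.9 CPM in day 3 KO libraries, against 11.6 to 15.8 CPM in day 3 control libraries, and 14.6 to 18.2 CPM in day 5 KO libraries, against 5.70 to 8.87 CPM in day 5 control libraries. Of these 5 markers only Tek was itself apart. It had 5.17 to 9.76 CPM in day 3 KO libraries, against 1.48 to 1.68 CPM in day 3 control libraries. At day 5 Tek had 4.97 to 9.13 CPM in KO libraries, against 1.35 to 1.79 CPM in control libraries. Pecam1, Cdh5, Kdr and Emcn overlapped at both days. Macrophage and blood markers summed to 44.6 to 64.2 CPM in day 3 KO libraries, against 69.7 to 94.3 CPM in day 3 control libraries, and overlapped at day 5. The haemoglobin gene Hba-a1 and the albumin gene Alb were at 0 in every group. Of the 7 KO libraries 5 were labelled male, and of the 7 control libraries 1. The part of these marker differences or of sex in the results below was not tested beyond the fit with sex as a term.

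At day 3, KO cells had less mRNA of Kat7, Kat14, Ep300, Kat2a and Kat6b than controls, and no member passed the test in the other direction. In numbers, 5 of 10 members were called (edgeR quasi-likelihood test, adjusted p below 0.05 by Benjamini-Hochberg over all genes), 0 higher and 5 lower. The Kat6b call lay at the threshold (adjusted p = 0.0499) and was lost under 21 of 23 alternatives. Crebbp, also lower in all day 3 KO libraries, narrowly missed it (adjusted p = 0.0503). Over all tested genes 50.9% were called, 24.6% higher and 26.2% lower. At day 5, KO cells had less Crebbp, Kat2a, Kat7, Kat14 and Ep300 and more Kat2b, Kat6a and Kat8, or 8 of 10 members called, against 52.5% of all genes (26.3% higher, 26.2% lower). The called share of the members at day 3 is thus about that of the whole table. Kat7, Kat14, Ep300 and Kat2a were called lower at both days, and Kat2b and Kat6a had positive fold changes at both days. In bulk samples, fewer cells of a type and less RNA per cell cannot be told apart.

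All of these differences were small. No member differed by 1.5-fold between KO and control, whereas 38.6% of all tested genes did so at day 3 and 31.9% at day 5. The largest member differences were 1.39-fold at day 3 (Kat7 and Kat14, both lower) and 1.35-fold at day 5 (Crebbp, lower). No member differed as much in either direction as Kat5, whose log2 fold change was -0.68 ± 0.09 SE, adjusted p = 2.02e-05 at day 3 and -0.75 ± 0.07 SE, adjusted p = 1.59e-06 at day 5. The median log2 fold change of the 10 members was -0.28 at day 3 and -0.15 at day 5, beside -0.0036 and 0.02 for all tested genes. The KO libraries lay entirely on one side of the control libraries for 8 of 10 members at day 3 (2 higher, 6 lower) and for 4 of 10 at day 5 (2 higher, 2 lower), while 57.8% and 47.4% of all tested genes did so in either direction. With upper-quartile scaling in place of TMM the median of all tested genes moved to 0.12 at day 3 and 0.14 at day 5, the higher share of calls moved to 62.1% and 64.4% (48.4% and 50.1% with TMM), and the members became 3 higher and 2 lower at each day. Against a fold of 1.2 (glmTreat), 2 members stayed past the threshold at day 3 and 0 at day 5.

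**Figure D1:**
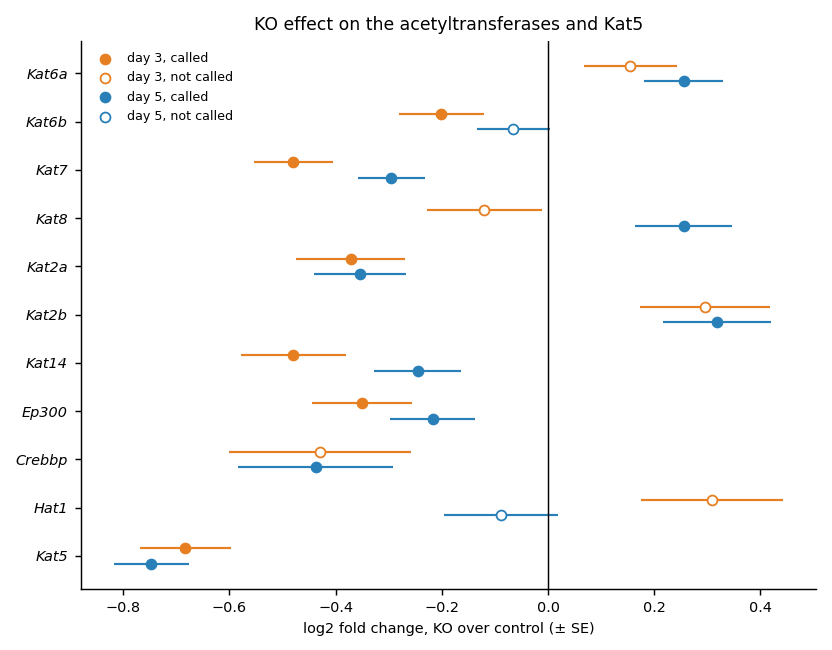
Log2 fold change of KO over control (x axis, ± SE) for the 10 acetyltransferases and Kat5 (rows) at day 3 (orange) and day 5 (blue); filled points passed the adjusted p threshold of 0.05 and open points did not. Kat7, Kat14, Ep300 and Kat2a lie left of 0 with filled points at both days, and no member lies as far from 0 as Kat5.

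**Figure D2:**
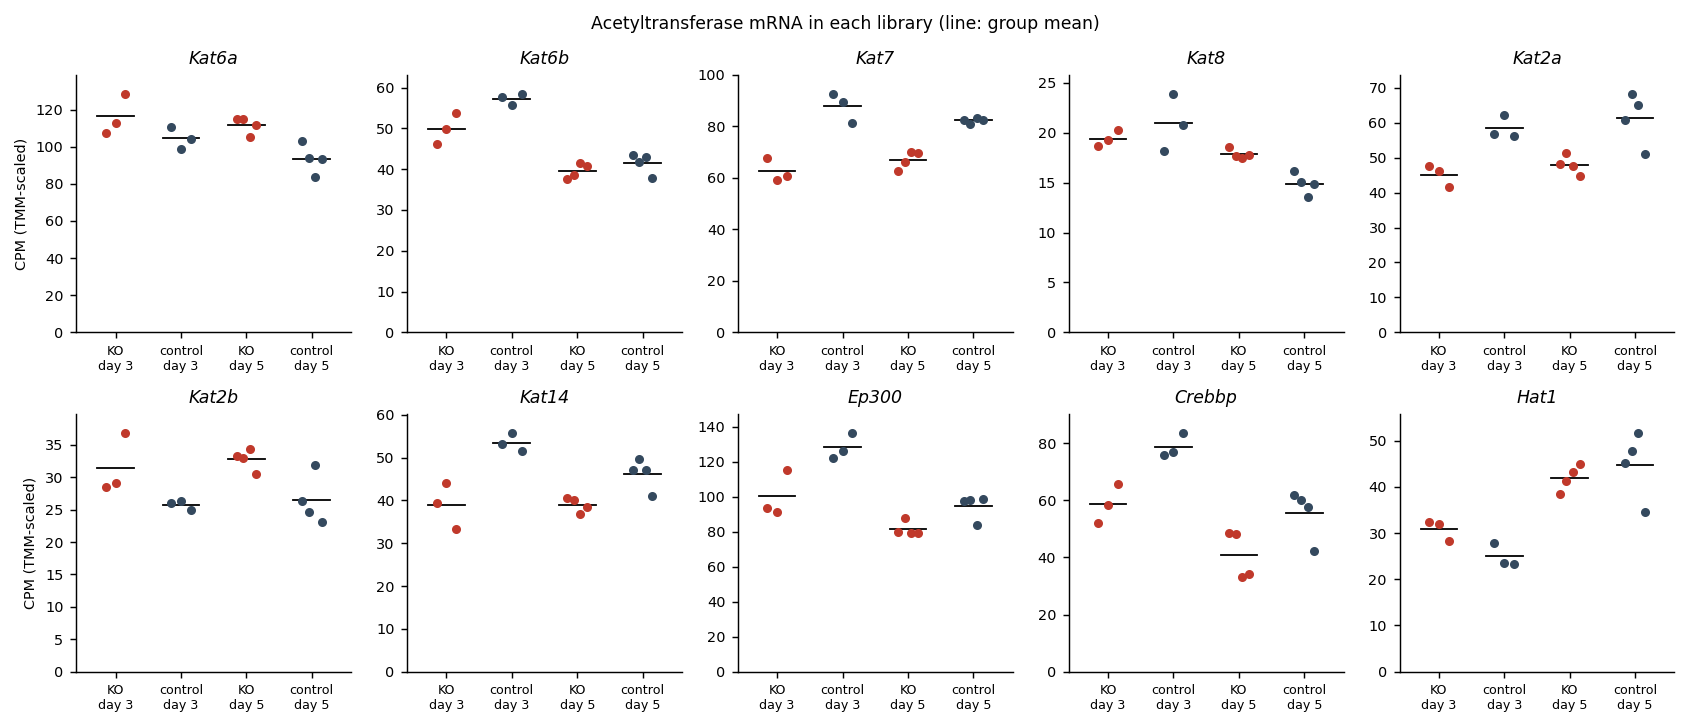
CPM of each acetyltransferase (y axis, from 0) in every library, in KO and control at day 3 and day 5 (x axis); points are libraries and lines are group means. The Kat7 points of KO lie below all control points at both days, and Hat1 is higher at day 5 than at day 3 in both genotypes.

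Gene positions below are those of mm10. Among the MYST enzymes, Kat7 (HBO1; gene identifier 217127, chr11:95271853-95310246), which acetylates histones H3 and H4 and acts at replication origins, was lower in KO at both days. At day 3 Kat7 had 67.6, 59.2 and 60.8 CPM in KO libraries, against 92.7, 89.6 and 81.1 CPM in control libraries. At day 5 it had 62.6, 66.1, 70.0 and 69.7 CPM in KO libraries, against 82.6, 81.1, 83.3 and 82.5 CPM in control libraries. The groups did not overlap at either day. Its log2 fold change was -0.48 ± 0.07 SE, adjusted p = 0.000122 at day 3 and -0.30 ± 0.06 SE, adjusted p = 0.00131 at day 5. The day 3 call held under all 23 alternatives tried and the day 5 call under all but the test against a fold of 1.2.

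Kat6a (MOZ; gene identifier 244349, chr8:22859442-22943259), a histone H3 acetyltransferase of the BRPF complexes known for its part in blood stem cells and in limiting senescence of fibroblasts, was higher in KO at day 5. It had 115, 115, 105 and 112 CPM in KO libraries, against 103, 93.9, 83.4 and 93.5 CPM in control libraries at day 5, with every KO library above every control library. At day 3 Kat6a had 108, 113 and 129 CPM in KO libraries, against 111, 99.0 and 104 CPM in control libraries, and here the groups overlapped. The log2 fold change was 0.26 ± 0.07 SE, adjusted p = 0.00987 at day 5, and 0.16 ± 0.09 SE, adjusted p = 0.15 at day 3, which did not pass the test. With upper-quartile scaling the day 3 value was 0.28 with adjusted p = 0.0135.

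Kat6b (MORF; gene identifier 54169, chr14:21499216-21672478), the paralogue of Kat6a in the same complexes, had 46.3, 49.8 and 53.8 CPM in KO libraries, against 57.8, 55.7 and 58.5 CPM in control libraries at day 3. The groups did not overlap, and the log2 fold change was -0.20 ± 0.08 SE, adjusted p = 0.0499. This call lay at the threshold and was lost under 21 of 23 alternatives, with adjusted p from 0.0275 to 0.705. At day 5 Kat6b had 37.7, 38.5, 41.6 and 40.7 CPM in KO libraries, against 43.5, 41.7, 43.0 and 37.8 CPM in control libraries, with overlapping groups and a log2 fold change of -0.07 ± 0.07 SE, adjusted p = 0.439. That day 5 value became positive (0.05) with upper-quartile scaling.

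Kat8 (MOF; gene identifier 67773, chr7:127912517-127925838), the H4 lysine 16 acetyltransferase of the MSL and NSL complexes, had 18.5, 17.7, 17.4 and 17.8 CPM in KO libraries, against 16.2, 15.1, 13.5 and 14.8 CPM in control libraries at day 5. Every KO library lay above every control library, and the log2 fold change was 0.26 ± 0.09 SE, adjusted p = 0.0283. At day 3 it had 18.6, 19.3 and 20.2 CPM in KO libraries, against 18.1, 23.9 and 20.8 CPM in control libraries, with the control values on both sides of the KO values and a log2 fold change of -0.12 ± 0.11 SE, adjusted p = 0.373. The day 3 value was 0.0045 with upper-quartile scaling. At day 5 the adjusted p lay above 0.05 when KO replicate 1 (0.0678), KO replicate 4 (0.0507), control replicate 2 (0.0556) or control replicate 3 (0.0755) was left out, in DESeq2 (0.0512), with no filter (0.0584) and with sex as a term (0.0698). Kat8 exons overlap the antisense gene Prss8, which averaged 0.104 CPM.

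In the GCN5 family the paralogues moved in opposite directions at day 5. Kat2a (GCN5; gene identifier 14534, chr11:100704746-100712485), the catalytic subunit of the SAGA and ATAC complexes, had 47.7, 46.0 and 41.7 CPM in KO libraries, against 56.7, 62.2 and 56.2 CPM in control libraries at day 3, with no overlap. At day 5 it had 48.2, 51.3, 47.6 and 44.8 CPM in KO libraries, against 60.8, 68.3, 65.2 and 51.1 CPM in control libraries, and control replicate 4 fell just below the highest KO library. Its log2 fold change was -0.37 ± 0.10 SE, adjusted p = 0.0079 at day 3 and -0.35 ± 0.09 SE, adjusted p = 0.00334 at day 5. The day 3 call was lost with upper-quartile scaling (adjusted p = 0.0544).

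Kat2b (PCAF; gene identifier 18519, chr17:53566774-53672721), which takes the place of Kat2a in the same complexes, had 28.5, 29.1 and 36.8 CPM in KO libraries, against 26.0, 26.3 and 25.0 CPM in control libraries at day 3. The groups did not overlap, but the log2 fold change of 0.30 ± 0.12 SE, adjusted p = 0.0553 missed the threshold. At day 5 Kat2b had 33.3, 33.0, 34.3 and 30.6 CPM in KO libraries, against 26.4, 24.6, 31.9 and 23.1 CPM in control libraries, with control replicate 3 inside the KO range. The log2 fold change of 0.32 ± 0.10 SE, adjusted p = 0.0166 passed the test. It no longer did so without day 5 control replicate 2 (adjusted p = 0.0538), and the day 3 value passed under 6 of 23 alternatives. With upper-quartile scaling both days passed, at 0.42 (adjusted p = 0.0106) and 0.44.

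Kat14 (CSRP2BP; gene identifier 228714, chr2:144369032-144407675), the second acetyltransferase subunit of ATAC, was lower in KO at both days. It had 39.4, 44.1 and 33.4 CPM in KO libraries, against 53.2, 55.8 and 51.6 CPM in control libraries at day 3. At day 5 it had 40.7, 40.0, 36.9 and 38.5 CPM in KO libraries, against 47.0, 49.8, 47.1 and 41.1 CPM in control libraries. There was no overlap at either day, although day 5 control replicate 4, at 41.1 CPM, was close to the highest KO library, at 40.7 CPM. Its log2 fold change was -0.48 ± 0.10 SE, adjusted p = 0.00106 at day 3 and -0.25 ± 0.08 SE, adjusted p = 0.0207 at day 5. The day 3 call held under all 23 alternatives. At day 5 the call depended on KO replicate 3 (adjusted p = 0.064 when it was left out) and on control replicate 2 (0.073), and was lost with upper-quartile scaling (0.202) or with sex as a term (0.0901). Kat14 exons overlap Pet117 on the same strand, which averaged 0.0576 CPM.

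Ep300 (p300; gene identifier 328572, chr15:81586209-81652077) and Crebbp (CBP; gene identifier 12914, chr16:4081334-4213957), paralogous co-activators that acetylate histone H3 lysine 27 at enhancers, were lower in KO, Ep300 at both days and Crebbp at day 5. Ep300 had 93.6, 91.6 and 115 CPM in KO libraries, against 122, 126 and 136 CPM in control libraries at day 3, with no overlap. At day 5 it had 79.9, 87.8, 79.5 and 79.1 CPM in KO libraries, against 97.7, 98.2, 84.1 and 98.5 CPM in control libraries, and control replicate 3 fell inside the KO range. The log2 fold change was -0.35 ± 0.09 SE, adjusted p = 0.00642 at day 3 and -0.22 ± 0.08 SE, adjusted p = 0.0338 at day 5. The day 3 call was lost with upper-quartile scaling (adjusted p = 0.0582). The day 5 call was lost without any one of KO replicates 1, 3 and 4 or control replicates 1, 2 and 4 of day 5 (adjusted p from 0.0512 to 0.0844) and with upper-quartile scaling (0.316).

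Crebbp had 52.0, 58.2 and 65.8 CPM in KO libraries, against 76.0, 76.8 and 83.6 CPM in control libraries at day 3. All KO libraries were below all control libraries, yet the log2 fold change of -0.43 ± 0.17 SE, adjusted p = 0.0503 narrowly missed the threshold. At day 5 Crebbp had 48.6, 48.2, 33.1 and 34.1 CPM in KO libraries, against 62.0, 60.1, 57.9 and 42.3 CPM in control libraries. KO replicates 3 and 4, from embryos whose identifiers begin alike, were the lowest, and control replicate 4 was below KO replicates 1 and 2. The day 5 log2 fold change was -0.44 ± 0.15 SE, adjusted p = 0.0216. This call depended on each of 4 libraries, with an adjusted p of 0.0684 without KO replicate 3, and likewise without KO replicate 4 (0.0675), control replicate 1 (0.0657) or control replicate 2 (0.0617) of day 5. The call was also lost with upper-quartile scaling (0.0768), with sex as a term (0.0988) and with only the day 5 groups in the fit (0.06). The day 3 value passed under 6 of 23 alternatives.

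Hat1 (gene identifier 107435, chr2:71389260-71441622), the type B enzyme that acetylates newly made histone H4 before its assembly into chromatin, had 32.4, 31.9 and 28.3 CPM in KO libraries, against 27.9, 23.6 and 23.3 CPM in control libraries at day 3. Every KO library was above every control library, while the log2 fold change of 0.31 ± 0.13 SE, adjusted p = 0.0669 missed the threshold. At day 5 Hat1 had 38.5, 41.2, 43.2 and 45.0 CPM in KO libraries, against 45.2, 47.7, 51.7 and 34.5 CPM in control libraries, with control replicate 4 below all KO libraries and the other controls above them. The day 5 log2 fold change was -0.09 ± 0.11 SE, adjusted p = 0.509, and it was positive with upper-quartile scaling (0.03) and with sex as a term (0.02). The day 3 value passed under 6 of 23 alternatives, among them the fit without day 5 control replicate 4 (0.31, adjusted p = 0.0144).

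The library labelled day 5 control replicate 4, the only male control and the only control with litter number 2, lay nearest to or beyond the KO libraries for Kat2a, Kat14, Crebbp and Hat1. Leaving it out gave 8 called members at day 3 (2 higher, 6 lower) and 7 at day 5. At day 5, 5 members were called without KO replicate 3 or KO replicate 4, and 3 without control replicate 2.

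With TMM scaling the summed level of the 10 members was lower in KO at both days, and with upper-quartile scaling it was lower at day 3 (97.1% of control) and slightly higher at day 5 (100.7%). Summed over the 10, KO libraries had 112, 113 and 115 RPKM at day 3, against 128, 129.9 and 126 RPKM in control libraries. KO libraries had 114, 118, 114 and 115 RPKM at day 5, against 128, 130, 129 and 110.5 RPKM in control libraries. The groups were apart at day 3, while at day 5 control replicate 4 was below every KO library. The KO mean was 88.9% of control at day 3 and 92.8% at day 5. It was 89.4% at day 5 without control replicate 4. In RPKM, the KO minus control difference of the sum was -14.1 at day 3 and -9.015 at day 5, while that of Kat5 was -4.77 and -4.94. These settings of the sum were added after the data were seen.

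By family and with TMM scaling, the MYST enzymes summed to 41.8, 41.9 and 45.1 RPKM in day 3 KO libraries, against 47.6, 49.4 and 46.8 RPKM in day 3 control libraries. At day 5 the MYST sums were 40.6, 40.7, 40.5 and 41.3 RPKM in KO libraries, against 41.8, 39.6, 38.0 and 39.1 RPKM in control libraries. The KO mean was 89.5% of control at day 3 and 103% at day 5, where the groups overlapped. The GCN5 family was at 87.3% of control at day 3 and 88.1% at day 5, and p300 and CBP together at 76.6% and 81.2%. The GCN5 family sums were apart at day 3. At day 5 they overlapped, at 21.2 to 23.8 RPKM in KO libraries, against 21.7 to 28.2 RPKM in control libraries. For p300 and CBP, KO libraries ranged from 17.6 to 22.0 RPKM at day 3, against 24.1 to 26.8 RPKM in control libraries. At day 5 they ranged from 13.5 to 16.5 RPKM in KO libraries, against 16.9 to 19.4 RPKM in control libraries, again with no overlap.

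**Figure D3:**
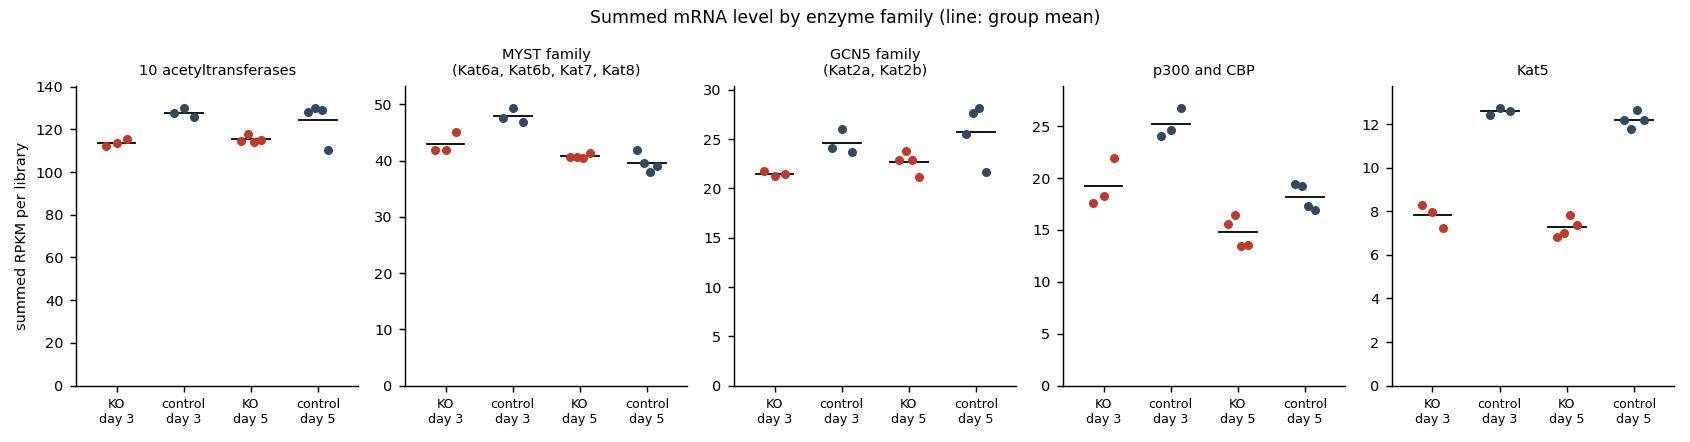
Summed RPKM per library (y axis, from 0) of all 10 acetyltransferases, of the MYST family, the GCN5 family and p300 with CBP, and of Kat5 alone, in KO and control at day 3 and day 5 (x axis); lines are group means. The sum of the 10 lies at 112 to 115 RPKM in day 3 KO libraries, below the day 3 controls, and 1 day 5 control library lies at 110.5 RPKM.

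The KO effect on the members was next compared between days. The difference between the KO effects at day 5 and day 3 was called for 0 of 10 members (edgeR), while it was called for 14.3% of all tested genes. DESeq2 also called 0. At an unadjusted p below 0.05 there were 2 members, Kat8, with a difference of 0.38 ± 0.14 SE, adjusted p = 0.0906, and Hat1, with -0.40 ± 0.17 SE, adjusted p = 0.139. The Kat8 difference passed without day 3 control replicate 1 (0.46, adjusted p = 0.0359) and the Hat1 difference without day 5 control replicate 4 (-0.51, adjusted p = 0.0134). For the other 8 members the differences ran from -0.0082 (Crebbp) to 0.23 (Kat14). A call at one day only, as for Kat6a, Kat8, Kat2b, Crebbp and Kat6b, is thus not shown to differ between the days.

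Between days, Hat1 was higher and Ep300 and Kat6b were lower at day 5 in both genotypes. In KO cells 3 of 10 members were called (1 higher, 2 lower), beside 12% of all tested genes (4.98% higher, 7.06% lower). In control cells 5 of 10 were called (1 higher, 4 lower), beside 38.3% of all tested genes (18.3% higher, 19.9% lower). Hat1 in KO had 38.5, 41.2, 43.2 and 45.0 CPM at day 5, against 32.4, 31.9 and 28.3 CPM at day 3. Hat1 in control had 45.2, 47.7, 51.7 and 34.5 CPM at day 5, against 27.9, 23.6 and 23.3 CPM at day 3. No library of day 3 reached the day 5 range in either genotype, and the log2 fold change was 0.45 ± 0.12 SE, adjusted p = 0.0294 in KO and 0.84 ± 0.12 SE, adjusted p = 9.74e-05 in control. The control value is the one member difference over 1.5-fold between days.

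Kat6b in KO had 37.7, 38.5, 41.6 and 40.7 CPM at day 5, against 46.3, 49.8 and 53.8 CPM at day 3, and in control it had 43.5, 41.7, 43.0 and 37.8 CPM at day 5, against 57.8, 55.7 and 58.5 CPM at day 3. The groups were apart in both genotypes. Its log2 fold change was -0.33 ± 0.07 SE, adjusted p = 0.00997 in KO and -0.47 ± 0.07 SE, adjusted p = 0.000188 in control. The log2 fold change of Ep300 was -0.30 ± 0.09 SE, adjusted p = 0.0361 in KO and -0.44 ± 0.09 SE, adjusted p = 0.0011 in control. Crebbp had -0.51 ± 0.16 SE, adjusted p = 0.0527 in KO and -0.50 ± 0.16 SE, adjusted p = 0.0204 in control. Kat8 was lower at day 5 in control (-0.49 ± 0.10 SE, adjusted p = 0.0013), while its value in KO was -0.11 ± 0.10 SE, adjusted p = 0.532. With the embryo as a replicate block, which pairs the days, Ep300 in KO lost its call (adjusted p = 0.0988), Crebbp in KO gained one (0.0225) and Crebbp in control lost its own (0.0863). The remaining members, Kat2a, Kat2b, Kat6a, Kat7 and Kat14, were not called between days in either genotype, with log2 fold changes from -0.21 (Kat14 in control) to 0.09 (Kat7 in KO). In KO, 0 members were called without day 3 replicate 4, and 1 without day 5 replicate 3 or 4. Hat1 in KO lost its call without any one of day 3 replicates 3 and 4 or day 5 replicates 2, 3 and 4 (adjusted p from 0.0527 to 0.138). Ep300 in KO lost it without day 3 replicate 4 or any one of day 5 replicates 1, 3 and 4 (0.0748 to 0.203) and with upper-quartile scaling (0.0566). Kat6b in KO lost it without day 3 replicate 4 (0.064), and Crebbp in control without day 3 replicate 3 (0.0743).

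**Figure D4:**
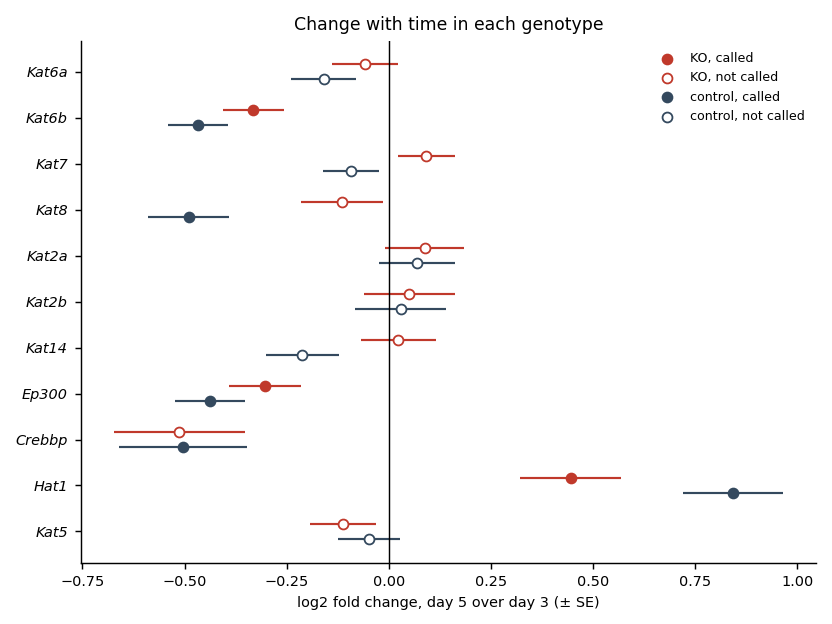
Log2 fold change of day 5 over day 3 (x axis, ± SE) for the 10 acetyltransferases and Kat5 (rows) in KO (red) and control (dark blue); filled points passed the adjusted p threshold of 0.05. Hat1 lies right of 0 and Kat6b and Ep300 lie left of 0 with filled points in both genotypes.

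In expression per gene length, Hat1 and Kat2a were the most abundant members in all 4 groups. In KO, Hat1 came first with 19.6 ± 1.44 RPKM at day 3 and 26.6 ± 1.76 RPKM at day 5 (SD), above Kat2a with 14.8 ± 1.03 RPKM and 15.7 ± 0.875 RPKM, with no overlap between them. In control, Kat2a led at day 3 with 19.1 ± 1.09 RPKM, ahead of Hat1 with 15.8 ± 1.61 RPKM, and Hat1 led at day 5 with 28.4 ± 4.67 RPKM, overlapping Kat2a with 20.1 ± 2.45 RPKM. In day 3 KO cells Kat8, Kat6a, Ep300, Kat7 and Kat14 followed at 12.9 to 10.4 RPKM, each overlapping its neighbour in that order. Crebbp, Kat6b and Kat2b were the lowest 3 in all 4 groups, at 7.82, 6.81 and 6.69 RPKM in day 3 KO cells, against 10.5, 7.81 and 5.48 RPKM in day 3 control cells. Kat5 stood among the middle genes in controls, at 12.6 RPKM at day 3 and 12.2 RPKM at day 5. In KO it stood at 7.83 and 7.26 RPKM, beside Crebbp at day 3 and Kat2b at day 5, whose libraries overlapped its own.

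The genes whose log2 CPM followed each member most closely over the 14 libraries are given as a description, since all libraries share the group differences. For Hat1 they were Gmnn (geminin, an inhibitor of replication licensing), Rrm1 (a subunit of ribonucleotide reductase) and Kif11 (a mitotic kinesin), with Pearson r of 0.990, 0.979 and 0.979, and 0.936, 0.884 and 0.880 with group means removed. Kif11 averaged 36.6 ± 9.30 CPM in day 3 KO libraries, against 21.2 ± 5.87 CPM in day 3 control libraries, and 63.4 ± 4.17 CPM in day 5 KO libraries, against 79.8 ± 17.1 CPM in day 5 control libraries (SD). The part of cell cycle state in the Hat1 levels was not tested. The closest genes of the other members are given with r, then r with group means removed. For Kat7 the closest gene was Syde1 (0.975, then 0.750) and for Ep300 Ndufv3 (0.972, then 0.857). For Kat14 it was Atad3a (0.967, then 0.907) and for Kat2a Tcirg1 (0.957, then 0.890). For Kat6b it was Higd1a (0.975, then 0.831), followed by the hypoxia-induced carbonic anhydrase Car9 (0.973, then 0.866). For Crebbp it was Ednrb (0.949, then 0.906) and for Kat6a Ino80d (0.947, then 0.845). For Kat8 it was Itgb7 (0.928, then 0.667) and for Kat2b Pdcd7 (0.900, then 0.783).

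Listed subunits of the MYST complexes other than the acetyltransferases themselves were lower in KO more often than higher. Of 20, 1 was called higher and 14 lower at day 3, and 3 higher and 8 lower at day 5, with median log2 fold changes of -0.56 and -0.18 beside -0.0036 and 0.02 for all tested genes. Of all tested genes 24.6% were called higher and 26.2% lower at day 3, and 26.3% higher and 26.2% lower at day 5, so the 11 called MYST subunits of day 5 are near the 52.5% of all genes. The day 5 count was 2 higher and 5 lower without control replicate 2. Brpf3, a scaffold of the Kat7 and Kat6 complexes, averaged 34.8 ± 3.29 CPM in day 3 KO libraries, against 62.4 ± 1.11 CPM in day 3 control libraries (log2 fold change -0.87 ± 0.073 SE, adjusted p = 6.46e-07). Ing5, the PHD-finger reader of these complexes, averaged 18.8 ± 1.91 CPM in day 3 KO libraries, against 33.7 ± 1.34 CPM in day 3 control libraries (-0.82 ± 0.098, adjusted p = 1.28e-05). Msl1, the scaffold that holds Kat8 in the MSL complex, averaged 60.8 ± 2.66 CPM in day 5 KO libraries, against 106.8 ± 4.92 CPM in day 5 control libraries (-0.81 ± 0.058, adjusted p = 1.62e-07). Brd1, the BRPF2 scaffold, fell at day 3 (-0.50 ± 0.060, adjusted p = 1.38e-05), and Phf20, a reader of the NSL complex, at day 5 (-0.42 ± 0.073, adjusted p = 0.000278).

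SAGA and ATAC subunits, the partners of Kat2a, Kat2b and Kat14, moved in both directions. Of 22, 3 were called higher and 12 lower at day 3, and 4 higher and 6 lower at day 5, with median log2 fold changes of -0.21 and -0.10, beside 50.9% and 52.5% called and medians of -0.0036 and 0.02 for all tested genes. With upper-quartile scaling the balance turned at day 5, to 7 higher and 4 lower. Atxn7l3, an adaptor of the SAGA deubiquitinase, averaged 69.1 ± 1.95 CPM in day 5 KO libraries, against 113 ± 3.30 CPM in day 5 control libraries (-0.71 ± 0.055, adjusted p = 3.39e-07). Supt7l, a core SAGA subunit, averaged 23.9 ± 3.65 CPM in day 3 KO libraries, against 13.9 ± 2.12 CPM in day 3 control libraries (0.81 ± 0.124, adjusted p = 0.000101), and it was higher at day 5 too (0.65 ± 0.102, adjusted p = 0.000117). Taf12 was higher at day 3 (0.60 ± 0.103, adjusted p = 0.000256) and Mbip of ATAC at day 5 (0.53 ± 0.113, adjusted p = 0.00132). Taf9 was lower at day 3 (-0.45 ± 0.078, adjusted p = 0.000268) and Supt3 at day 5 (-0.59 ± 0.100, adjusted p = 0.000222).

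**Figure D5:**
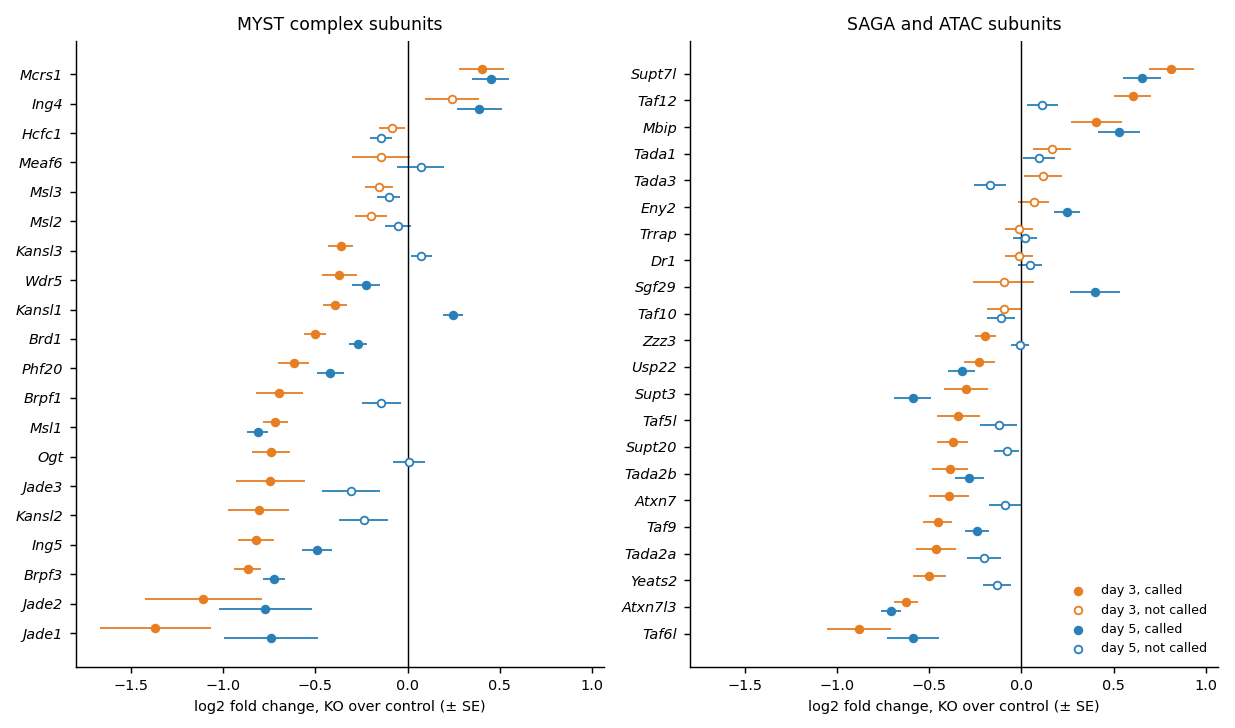
Log2 fold change of KO over control (x axis, ± SE) for subunits of the MYST complexes (left) and of SAGA and ATAC (right), ordered by the day 3 value; orange is day 3, blue is day 5, and filled points passed the adjusted p threshold of 0.05. Of the MYST subunits 14 of 20 have filled day 3 points left of 0, and Supt7l, Taf12 and Mbip have filled day 3 points right of 0.

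Among partners of p300, CBP and HAT1, 13 of 15 were tested, with 2 called higher and 5 lower at day 3 and 1 higher and 2 lower at day 5. These 7 and 3 calls stand beside 50.9% and 52.5% of all tested genes, so the day 3 share is near that of all genes and the day 5 share below it. With upper-quartile scaling the day 5 calls were 3 higher and 0 lower, and without day 5 control replicate 4 they were 2 higher and 4 lower. The CREB co-activator Crtc1 averaged 27.0 ± 0.578 CPM in day 3 KO libraries, against 19.0 ± 1.93 CPM in day 3 control libraries (0.50 ± 0.120, adjusted p = 0.00316). Its relative Crtc3 averaged 33.7 ± 2.88 CPM in day 3 KO libraries, against 49.2 ± 1.03 CPM in day 3 control libraries (-0.53 ± 0.088, adjusted p = 0.000227). Rbbp4, a histone chaperone related to the HAT1 partner Rbbp7, was lower at both days, by -0.35 and -0.27 (adjusted p = 0.00244 and 0.00484). Of 12 other genes reported as acetyltransferases, 3 were higher and 3 lower at day 3, and 4 higher and 2 lower at day 5. That is 6 of 12 at each day, near the share of all tested genes. Esco2, which acetylates cohesin during replication, was higher at day 3 (0.90 ± 0.195, adjusted p = 0.00158), and Cdyl was lower at both days (-0.90 and -0.46, adjusted p = 2.24e-05 and 0.00119). Atat1, the tubulin acetyltransferase, was higher at day 5 (0.55 ± 0.104, adjusted p = 0.000589).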

How the data were processed

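Per the labels' protocols, stranded poly(A)-selected libraries of 14 MEF cultures were sequenced as 80 bp paired-end reads. Per the submitters' processing notes, featureCounts assigned reads to genes of mm10; no source used here names the aligner, annotation release, strand setting or versions. The values the authors deposited are raw counts per gene, unnormalized, with an Entrez gene identifier and, per the file headers, a gene length (the other deposited value used, for RPKM). Lines without an identifier (909 of 27179, with 0.194% to 0.315% of the counts) and 112 sex-linked genes (Xist, Tsix, Y chromosome) were excluded.

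The 14 libraries entered a single robust quasi-likelihood model in edgeR 4.0.16 under R 4.3.3, after filterByExpr and scaling by trimmed mean of M values (TMM). Each group had its own mean, and p values of each of 5 contrasts were adjusted by Benjamini-Hochberg over the 14327 tested genes. Calls need an adjusted p below 0.05. Standard errors are the log2 fold change over the square root of F. Alternatives were other scalings, no filter, DESeq2 1.42.0, a fold of 1.2, sex as a term, summing the day 3 control libraries of one embryo, a replicate block, only the groups compared, and leaving out each library; the script was tested on simulated data. The members, gene lists and tests were chosen with earlier results of these data known. All members and Kat5 are named in each comparison, and from each other list up to 4 called genes with the smallest adjusted p per day qualified, of which some are printed.

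Within a genotype the embryo identifier pairs the days. After group means were removed, same-embryo libraries correlated at -0.017, -0.023 and 0.204 in KO and 0.020, 0.077 and -0.023 in control. Replicates of a group differed beyond sampling noise (chi-square per degree of freedom at least 3.18), so none was a copy. Depth limits mainly KO day 3 replicate 3. Gene coordinates and promoters are GRCm38.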

Additional observations from a re-analysis of the deposited data

Results flagged for a closer look

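In groups of 4 libraries, 22 sets of member values (and Kat5) were checked for a library standing apart, a check that chance alone trips in about 1 of 20 groups, and 2 stood out, both for Ep300 at day 5. In KO, replicate 2 was highest at 87.8 CPM, while the others lay between 79.1 and 79.9 CPM. In control, replicate 3 was lowest at 84.1 CPM, while the others lay between 97.7 and 98.5 CPM. These are the libraries by which the day 5 groups of Ep300 overlap.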

How the results depend on the processing

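Over 460 member values under alternatives for KO against control, 378 kept their direction and side of the threshold, 59 lost and 19 gained a call, and 4 changed sign. The sign changes were Kat8 at day 3 (0.0045), Kat6b at day 5 (0.0544) and Hat1 at day 5 (0.0314) under upper-quartile scaling, and Hat1 at day 5 (0.0195) with sex as a term. The cause was not tested. Against a fold of 1.2 the called members were 2 at day 3, 0 at day 5 and 0 between days in KO, and the genes called were 4732 for KO against control at day 5, 901 for the difference of effects, 580 between days in KO and 3107 in control. Called members at day 5 numbered 5 with upper-quartile scaling and 5 with sex as a term. Leaving out single libraries gave 4 to 8 called members at day 3, 3 to 8 at day 5, 0 to 1 for the difference of effects, 0 to 4 between days in KO and 4 to 6 in control. The genes called ran from 1275 to 2750 for the difference of effects and from 1024 to 2549 between days in KO. At day 5 the lower counts were 5 without KO replicate 3 or 4 and 3 without control replicate 2. The summed level, with settings chosen after seeing the data, was 97.1% at day 3 and 100.7% at day 5 under upper-quartile scaling, and ran from 88.3% to 89.7% at day 3 and from 89.4% to 94.2% at day 5 without single libraries. The shallowest library, KO day 3 replicate 3, limits low counts. In it Kat8 had 41 counts, Kat5 43, Kat2b 62 and Hat1 68. The lowest member value in any library was 13.5 CPM (Kat8, day 5 control replicate 3).

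Several differences near 0 changed sign, none of them called in either fit. For the difference of effects, Kat2a was -0.0024 with RLE factors, -0.0104 without the filter, -0.0016 in DESeq2, -0.0271 and -0.0168 under the number and embryo replicate blocks, and -0.0618 to 0.0766 without single libraries. Kat2b was -0.0061 without the filter, -0.0005 and -0.1073 under the number and embryo blocks, and -0.0729 to 0.1578 without single libraries. Crebbp was 0.0154 with the libraries of one embryo summed and -0.1180 to 0.0920 without single libraries, and Kat5 was -0.1318 to 0.0040. Between days in KO, leaving out single libraries gave -0.0433 to 0.1854 for Kat2b, -0.1188 to 0.0195 for Kat6a and -0.0844 to 0.0913 for Kat14. In control it gave -0.0594 to 0.0822 for Kat2b.

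KO and control share replicate numbers and the litter numbers 1 and 2, but no embryo identifier. Day 5 KO and control libraries of the same replicate number correlated at 0.230, 0.155, -0.166 and 0.428. With the replicate number as a replicate block 5 members were called at day 3 (6863 genes) and 8 at day 5 (7873 genes). With the embryo block, which pairs the days, 3 members were called in KO and 4 in control (1777 and 4293 genes), and 0 for the difference of effects (1561 genes). It changed no member's call other than those of Ep300 and Crebbp given above.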

Other observations

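Enzymes that remove acetyl groups, proteins that read them and genes of acetyl-CoA supply were counted beside all tested genes, of which 50.9% were called at day 3 and 52.5% at day 5. Of 18 histone deacetylases and sirtuins, 2 were called higher and 6 lower in KO at day 3, and 2 higher and 4 lower at day 5 (edgeR, adjusted p below 0.05), with median log2 fold changes of -0.15 and -0.06. The day 3 share is near that of all tested genes, and the day 5 share is below it. Sirt2, a largely cytoplasmic sirtuin, averaged 66.7 ± 4.24 CPM in day 3 KO libraries, against 117.6 ± 10.1 CPM in day 3 control libraries (-0.81 ± 0.076 SE, adjusted p = 1.76e-06). Hdac4, a class IIa deacetylase, averaged 23.4 ± 2.85 CPM in day 3 KO libraries, against 41.4 ± 1.06 CPM in day 3 control libraries (-0.85 ± 0.121, adjusted p = 6.17e-05). Sirt4, a mitochondrial sirtuin, was higher at day 5 (0.71 ± 0.152, adjusted p = 0.00135).

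Of 20 acetyl-lysine readers, 19 were tested, with 3 called higher and 8 lower at day 3 and 5 higher and 8 lower at day 5 (6 higher and 5 lower at day 5 with upper-quartile scaling). The 11 calls of day 3 and 13 of day 5 stand beside 50.9% and 52.5% of all tested genes. Brd9, a bromodomain subunit of a BAF complex, averaged 60.9 ± 2.53 CPM in day 5 KO libraries, against 40.5 ± 3.88 CPM in day 5 control libraries (0.59 ± 0.077, adjusted p = 2.3e-05). Baz1a, a subunit of ISWI remodellers, averaged 34.6 ± 1.00 CPM in day 5 KO libraries, against 65.9 ± 8.60 CPM in day 5 control libraries (-0.93 ± 0.100, adjusted p = 4.72e-06).

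Of 18 genes of acetyl-CoA supply, 3 were called higher and 3 lower at day 3, and 3 higher and 8 lower at day 5. The day 3 count of 6 is below the 50.9% of all tested genes, and the day 5 count of 11 stands beside 52.5%. With upper-quartile scaling these became 7 higher and 3 lower at day 3 and 5 each way at day 5. The citrate carrier Slc25a1 averaged 78.8 ± 9.09 CPM in day 5 KO libraries, against 136.8 ± 9.70 CPM in day 5 control libraries (-0.79 ± 0.094, adjusted p = 1.02e-05). Citrate synthase, Cs, averaged 211 ± 8.21 CPM in day 5 KO libraries, against 334 ± 24.5 CPM in day 5 control libraries (-0.67 ± 0.080, adjusted p = 1.18e-05).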
